A study of Mus musculus with 6 samples.

Results

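Chemokines and their receptors form a system of 62 genes in the deposited liver table of 22274 genes. They were chosen by symbol: every Ccl, Cxcl, Cx3cl and Xcl ligand and every Ccr, Cxcr, Cx3cr, Xcr and Ackr receptor. There were 39 ligand genes, 19 receptor genes and 4 atypical receptor genes. Livers of C57 mice that had received Ad-Dyrk1b, an adenovirus carrying mouse Dyrk1b, were compared with livers that had received the control virus Ad-EGFP, with 3 samples in each group. Both groups had therefore received adenovirus, and no uninfected livers were compared. The promoter of the vectors, the virus dose, the time after infection and the age and sex of the mice are not stated in the sources used. No label ties each sample to its own mouse. The p-values therefore measure the spread between libraries, which may be technical. Values by library are always given in the order of replicates 1, 2 and 3.

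Chemokines are small secreted proteins grouped by the spacing of their conserved cysteines into CC, CXC, CX3C and XC families. They steer leukocytes through G protein-coupled receptors, and the atypical receptors (Ackr) bind chemokines without G protein signalling and mostly remove them. In the liver, Kupffer cells (resident macrophages), sinusoidal endothelial cells, stellate cells, bile duct cells and hepatocytes can all make chemokines. In whole-liver RNA, a change in the number of cells of a type cannot be told apart from a change in RNA per cell.

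Total counts ranged from 17326516 to 20024888 per library, so 3 counts, the limit that a count of 0 allows, correspond to 0.150 to 0.173 CPM (counts scaled to library size). Intervals of this kind cover counting error only. The libraries carried their labels: Dyrk1b stood at 62.2, 101 and 96.5 FPKM (fragments normalised to transcript length and library size) in the Ad-Dyrk1b libraries, and at 3.81 to 4.97 FPKM in Ad-EGFP. The hepatocyte gene Alb was present at 28810 ± 3651 FPKM with Ad-Dyrk1b and 32880 ± 776 FPKM with Ad-EGFP (mean ± SD, n = 3 each). Of 13201 genes tested, edgeR called 12.2% at an adjusted p under 0.05, 972 upward and 635 downward. Upward calls were 60.5% of the total, against 44.2% (556 upward, 702 downward) when limma-trend was run on log2(FPKM + 1). That scale moved the median log2 fold change of all genes from -0.0050 to -0.064. Ad-EGFP replicate 1 had the lowest CPM of the 6 libraries in 17 of the 37 tested chemokine and receptor genes, whereas it was lowest in 19.8% of all tested genes.

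The 250 bases upstream of the start site are shown for a ligand gene that rose (Ccl9), one that fell (Cxcl1) and one that was not called (Cxcl10). They are from RefSeq on GRCm38.p6, which is mm10, and 47 of the 62 genes had such a window. Capitals mark matches to the NF-kB consensus on either strand or to the letters GAAA, any 2 bases and GAAA, the core of an interferon-stimulated response element. NF-kB is the transcription factor of inflammatory signalling and the response element is bound by interferon-activated factors. The windows lie at chr11:83578637-83578886 (minus strand), chr5:90890995-90891244 (plus strand) and chr5:92348890-92349139 (minus strand).
Ccl9: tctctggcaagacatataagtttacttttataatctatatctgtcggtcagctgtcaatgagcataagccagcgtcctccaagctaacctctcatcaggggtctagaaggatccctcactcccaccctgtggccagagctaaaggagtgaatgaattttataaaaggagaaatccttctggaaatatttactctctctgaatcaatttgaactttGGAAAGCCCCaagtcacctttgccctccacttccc
Cxcl1: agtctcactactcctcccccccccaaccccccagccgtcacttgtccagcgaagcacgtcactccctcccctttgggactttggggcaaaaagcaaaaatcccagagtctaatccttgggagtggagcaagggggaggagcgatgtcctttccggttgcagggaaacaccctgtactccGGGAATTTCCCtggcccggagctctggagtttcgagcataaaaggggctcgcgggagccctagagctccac
Cxcl10: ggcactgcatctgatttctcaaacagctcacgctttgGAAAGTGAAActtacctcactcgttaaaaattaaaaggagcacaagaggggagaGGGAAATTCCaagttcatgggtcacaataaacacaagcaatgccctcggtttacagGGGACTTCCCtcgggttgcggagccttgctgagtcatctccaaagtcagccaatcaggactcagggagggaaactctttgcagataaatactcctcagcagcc
The Cxcl1 window held GGGAATTTCC at -71 to -62 relative to the start site, and the same 10 bases stood at -97 to -88 in Cxcl2 and at -73 to -64 in Cxcl3. In Cxcl1 a second match, on the other strand, overlapped it by all but 1 base. The Cxcl10 window held 2 NF-kB matches (-159 to -150 and -103 to -94) and the interferon element at -213 to -204. The Ccl9 window held 1 NF-kB match on the minus strand at -35 to -26. For the 3 motifs that follow, members were counted as genes, which can have more than 1 window, and the background as single windows. The 2 shares are therefore not on the same scale. An NF-kB match was present in 9 of the 47 genes and in 3.90% of all 32851 windows of this length. The interferon element was present in 3 of the 47 (Ccl19, Cxcl10 and Cxcl14) and in 2.98% of all windows. The letters TTCNNNGAA, the site of STAT factors, were found in 4 of the 47 and in 7.02% of all windows, with no match in Ccl9, Cxcl1 or Cxcl10. Neither window of Ccl25, another gene that fell, held any of these 3 motifs. A match is a description of the letters and not a site shown to be in use.

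Of the 62 genes, 37 passed the filter on low counts, and 4 of these rose and 2 fell in Ad-Dyrk1b livers. Ccl9, Ccl24 and Ccl6 were among those that rose, and Cxcl1 and Ccl25 fell. The 6 called genes are 16.2% of the tested members, near the 12.2% of all tested genes. By direction, the backgrounds were 7.36% of genes called higher and 4.81% called lower. On CPM scaled with TMM factors (which correct for differences in RNA composition), the groups did not overlap in 7 members that were higher and 4 that were lower, against 16.5% and 17% of all tested genes (33.6% in either direction). The median log2 fold change of the 37 members was 0.27 and that of all tested genes -0.0050. Of the 37, 28 lay above 0, as did 6515 of the 13201 tested genes. The ranked plot of fold changes shows that most members lay within a few standard errors of 0.

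**Figure D1:**
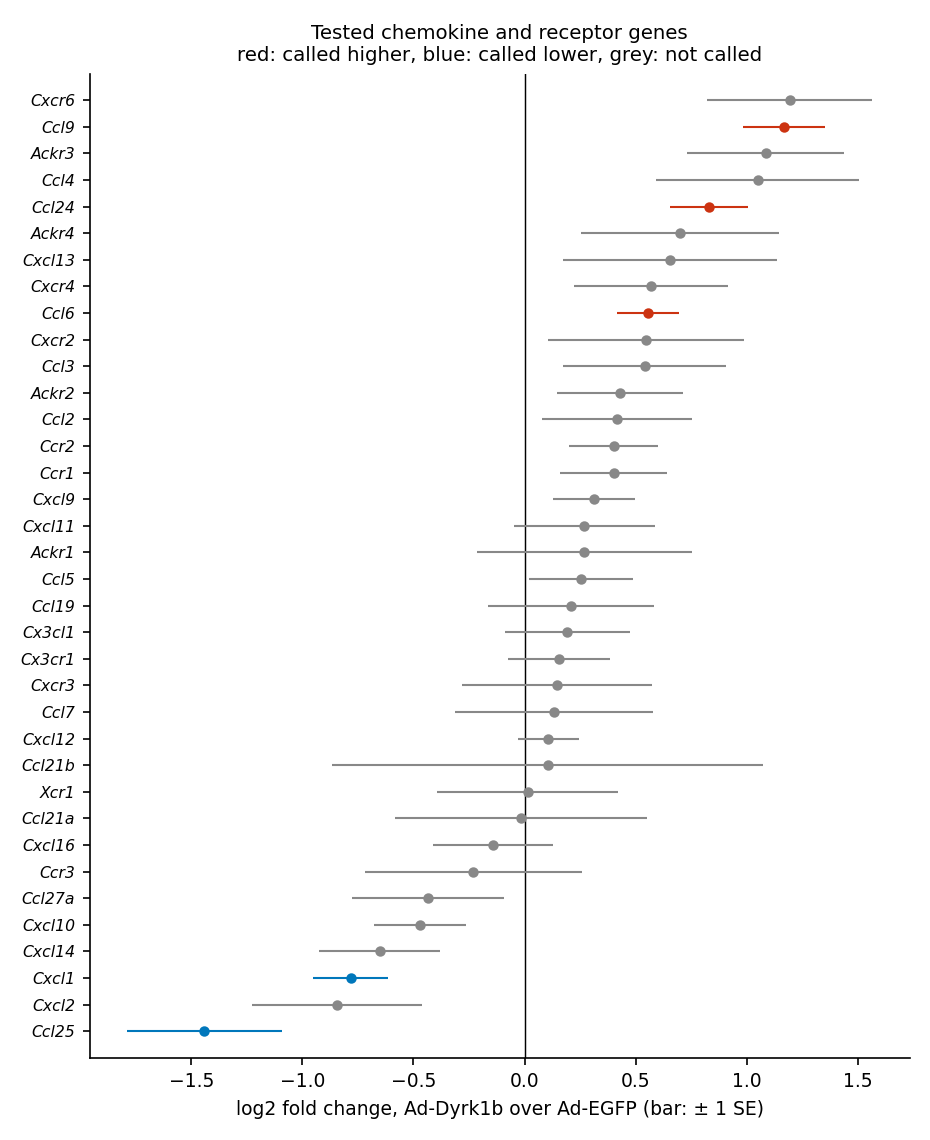
Log2 fold change of Ad-Dyrk1b over Ad-EGFP (horizontal axis, bar ± 1 SE) for 36 tested chemokine and receptor genes (vertical axis, ranked). Red points are genes called higher and blue points the 2 called lower. Cxcr6 has the highest value, 1.19 ± 0.37, and is not called.

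The levels of the ligand genes spanned a wide range. Per length, and averaged over the 6 libraries, Cxcl12 had the highest level (65.2 FPKM), followed by Ccl9 (55.9), Ccl6 (50.8), Cxcl10 (35.3), Cxcl9 (28.4), Cxcl1 (23.8), Ccl24 (21.5) and Ccl5 (16.1 FPKM). These 8 ligands were the members with a mean of 10 FPKM or more. Another 17 members had a mean between 1 and 10 FPKM, and 37 were below 1 FPKM. The receptor genes were all low. Among them, Ccr1 (3.60 FPKM), Cxcr4 (2.34), Ccr2 (1.95), Cx3cr1 (1.58) and Cxcr6 (1.24 FPKM) had means over the 6 libraries above 1 FPKM. The ranges of Ccr1 (2.13 to 4.72 FPKM) and Cxcr4 (1.05 to 3.91 FPKM) overlapped across libraries. Within each of the 6 libraries Ccr1 was the higher, and the order of the receptors was not tested.

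**Figure D2:**
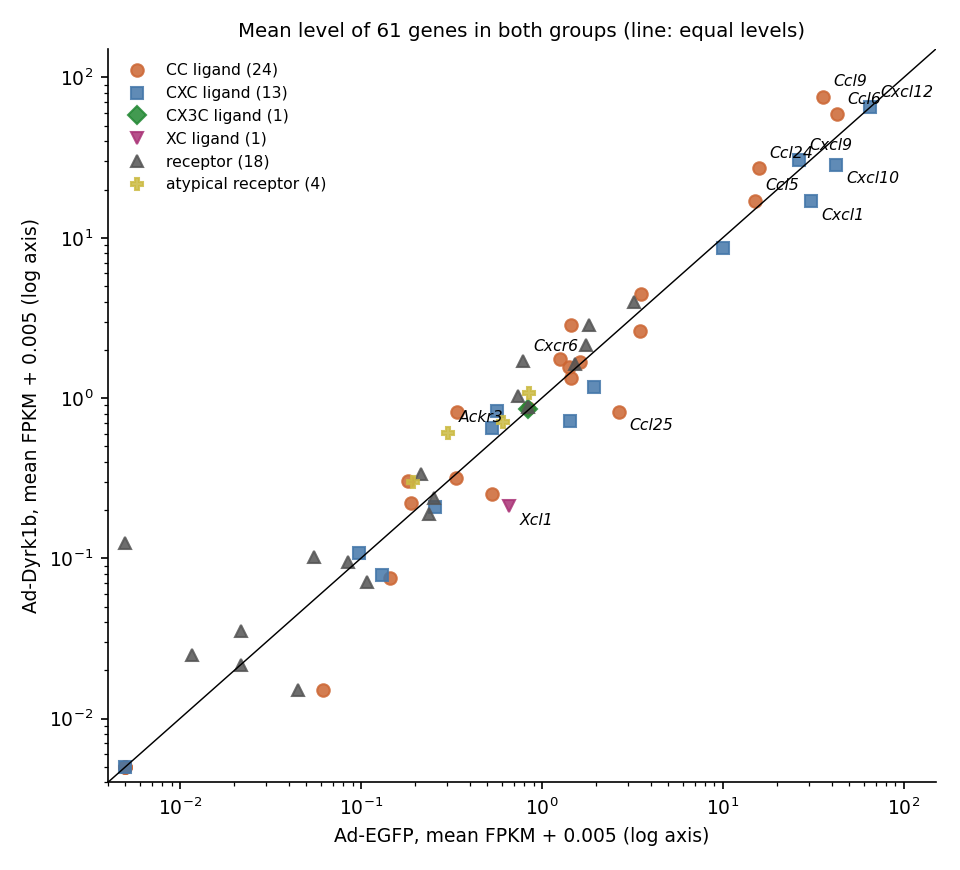
Mean FPKM in Ad-EGFP (horizontal) against Ad-Dyrk1b (vertical) for 61 of the 62 genes, on log axes after adding 0.005, by family. The line marks equal levels. Ccl9, Ccl6 and Ccl24 lie above the line among the ligands with the highest levels, and Cxcl1 and Ccl25 lie below it.

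Among the CC ligands, the 3 genes that rose, Ccl9, Ccl6 and Ccl24, were among those with the highest levels. CCL9 and CCL6 are chemokines of rodents that are made mainly by myeloid cells and act through CCR1. Ccl9 (ENSMUSG00000019122, chromosome 11, 83572919 to 83578636, minus strand) stood at 95.7, 79.8 and 52.4 FPKM in the Ad-Dyrk1b libraries. It stood at 39.0, 34.7 and 33.4 FPKM in the Ad-EGFP libraries. All 3 Ad-Dyrk1b libraries were above all 3 Ad-EGFP libraries, with replicate 3 the lowest of its group. The rise was 2.25-fold (log2 fold change 1.17 ± 0.19, edgeR adjusted p = 0.00374). The call held under all 14 alternatives of processing, with adjusted p from 2.13e-09 to 0.0281 by the tool of each.

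Ccl6 (ENSMUSG00000018927, chromosome 11, 83587882 to 83593087, minus strand) lies 9.245 kb from Ccl9. It stood at 68.9, 47.9 and 60.4 FPKM in the Ad-Dyrk1b libraries and at 33.8, 48.6 and 45.3 FPKM in the Ad-EGFP libraries. On FPKM, Ad-Dyrk1b replicate 2 lay just below Ad-EGFP replicate 2, while on TMM-scaled CPM the groups did not overlap (73.8 and 67.0 CPM in these libraries). The rise was 1.47-fold (log2 fold change 0.55 ± 0.14, edgeR adjusted p = 0.0240). The call ended when Ad-Dyrk1b replicate 1 (edgeR adjusted p = 0.0828) or 3 (0.0641) was left out, and likewise Ad-EGFP replicate 1 (0.0823) or 3 (0.0549). Over all 6 such fits the edgeR adjusted p was 0.0164 to 0.0828. It also ended with limma-trend on FPKM (adjusted p = 0.109).

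Ccl24 encodes eotaxin-2, which attracts eosinophils through CCR3 (ENSMUSG00000004814, chromosome 5, 135569937 to 135573049, minus strand). It stood at 35.3, 23.5 and 22.8 FPKM in the Ad-Dyrk1b libraries, and at 17.1, 17.1 and 13.4 FPKM in the Ad-EGFP libraries. The groups did not overlap, and Ad-Dyrk1b replicate 1 was the highest. The rise was 1.78-fold (log2 fold change 0.83 ± 0.18, edgeR adjusted p = 0.00989) and was called under all 14 alternatives, with adjusted p of up to 0.0453 by the tool of each. Its neighbour Ccl26, an eotaxin gene as well, was at 0 in all 6 libraries.

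**Figure D3:**
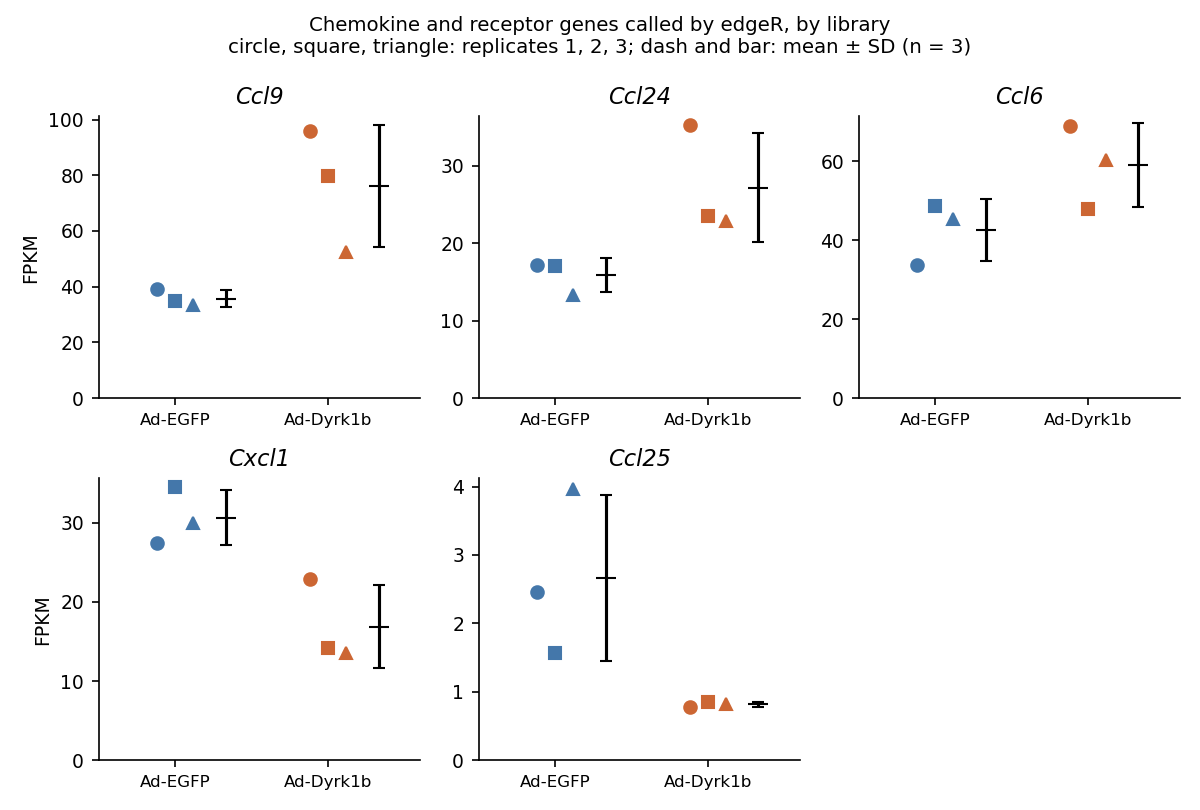
FPKM by library (vertical axis, starting at 0) of 5 genes called by edgeR, in Ad-EGFP (blue) and Ad-Dyrk1b (orange). Markers give replicates 1, 2 and 3, and the dash with its bar gives the mean ± SD (n = 3). Ccl9, Ccl24, Cxcl1 and Ccl25 separate the groups, and Ccl6 overlaps on this scale.

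Ccl25, a ligand of CCR9 best known from thymus and small intestine, was the CC ligand gene that fell (ENSMUSG00000023235, chromosome 8, 4325210 to 4360020, plus strand). It stood at 0.780, 0.850 and 0.820 FPKM in the Ad-Dyrk1b libraries, and at 2.46, 1.57 and 3.96 FPKM in the Ad-EGFP libraries. The Ad-Dyrk1b libraries were close together and all lower, and the Ad-EGFP libraries were spread. The level was 2.72-fold lower (log2 fold change -1.44 ± 0.35, edgeR adjusted p = 0.0191), on 15 to 18 counts per Ad-Dyrk1b library and 29 to 56 per Ad-EGFP library. The call ended when Ad-Dyrk1b replicate 1 (edgeR adjusted p = 0.0644) or 2 (0.0519) was left out, and likewise Ad-EGFP replicate 1 (0.0583) or 3 (0.0819). Over all 6 such fits the edgeR adjusted p was 0.0139 to 0.0819. Ccl25 shares 204 exon bases with Elavl1 on the opposite strand, and no strand setting is stated for the counting, so its reads may be mixed with those of Elavl1. Elavl1 itself had 769 to 1004 counts per library, and its log2 fold change was 0.0087 ± 0.11 (edgeR adjusted p = 0.971).

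The other tested CC ligands were not called. Ccl5, an attractant made by T and NK cells among others, stood at 17.0 ± 3.75 FPKM with Ad-Dyrk1b and 15.1 ± 4.53 FPKM with Ad-EGFP (mean ± SD, n = 3 each; log2 fold change 0.25 ± 0.23, edgeR adjusted p = 0.510). Ccl4 and Ccl3, genes of macrophage inflammatory proteins, differed by 1.05 ± 0.46 and 0.54 ± 0.37 on the log2 scale (edgeR adjusted p = 0.154 and 0.358). In Ccl4, Ad-EGFP replicate 1 was lowest with 6 counts, against 20 to 46 in the other libraries. The monocyte attractants Ccl2 and Ccl7, ligands of CCR2, had 0.42 ± 0.34 and 0.13 ± 0.45 (edgeR adjusted p = 0.454 and 0.874), and the sign for Ccl7 changed between settings. Ccl2 ranged from 2.61 to 6.76 FPKM and the groups overlapped. The lymphoid CCR7 ligands Ccl19, Ccl21a and Ccl21b had 0.21 ± 0.37, -0.018 ± 0.57 and 0.10 ± 0.97 (edgeR adjusted p = 0.755, 0.988 and 0.958), each with a sign that changed between settings. Ccl27a, a skin chemokine gene, had -0.43 ± 0.34 (edgeR adjusted p = 0.436). The Ccl21 genes are near-identical copies of each other on chromosome 4, and separately so are the Ccl27 genes. The counting of reads that match several of them is not described in the sources used, so single values, and the 0 listed for Ccl21d and Ccl27b, are uncertain.

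Among the CXC ligands, the neutrophil attractant Cxcl1 fell and no gene rose. CXCL1 and CXCL2 act on neutrophils through CXCR2 and are made by hepatocytes and other liver cells under inflammatory signals. Cxcl1 (ENSMUSG00000029380, chromosome 5, 90891241 to 90893115, plus strand) stood at 22.9, 14.2 and 13.6 FPKM in the Ad-Dyrk1b libraries, and at 27.5, 34.5 and 30.0 FPKM in the Ad-EGFP libraries. All Ad-Dyrk1b libraries were lower. The level was 1.72-fold lower (log2 fold change -0.78 ± 0.17, edgeR adjusted p = 0.0122). Leaving out Ad-Dyrk1b replicate 2 ended the call (edgeR adjusted p = 0.0531, and 0.00166 to 0.0531 over the 6 such fits). Cxcl2, whose upstream window shares the 10 bases shown above, was counted 21, 10 and 17 times with Ad-Dyrk1b and 22, 37 and 26 times with Ad-EGFP. Its groups did not overlap, and its log2 fold change of -0.85 ± 0.38 was not called (edgeR adjusted p = 0.168). Of the other genes of that cluster on chromosome 5, Cxcl5 and Cxcl3 had 39 and 11 counts over all 6 libraries and Cxcl15 had 0.

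The CXCR3 ligands Cxcl9, Cxcl10 and Cxcl11, which interferons induce and which attract T and NK cells, were not called. Cxcl10 stood at 36.1, 28.4 and 21.3 FPKM in the Ad-Dyrk1b libraries and at 30.3, 46.2 and 49.5 FPKM in the Ad-EGFP libraries. The groups overlapped through Ad-EGFP replicate 1 (log2 fold change -0.47 ± 0.21, edgeR adjusted p = 0.177). Without that library Cxcl10 was called lower (log2 fold change -0.65, edgeR adjusted p = 0.0450, highest 0.368 with 1 library left out). Cxcl9, its neighbour on chromosome 5, stood at 29.8, 31.4 and 30.5 FPKM in the Ad-Dyrk1b libraries, and at 17.9, 27.6 and 33.3 FPKM in the Ad-EGFP libraries. The groups overlapped (log2 fold change 0.31 ± 0.18, edgeR adjusted p = 0.305). Cxcl11 was low, at 0.647 ± 0.0751 and 0.523 ± 0.116 FPKM with Ad-Dyrk1b and Ad-EGFP livers (SD, n = 3 each; log2 fold change 0.27 ± 0.32, edgeR adjusted p = 0.619). Cxcl10 shares 133 exon bases with Art3 and Cxcl11 shares 1582 with the pseudogene Gm2673, both on the opposite strand. Art3 had 22 to 39 counts per library, against 418 to 940 for Cxcl10.

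The ratio of Cxcl9 to Cxcl10, which does not depend on library scaling, was 0.825, 1.11 and 1.43 in the Ad-Dyrk1b libraries and 0.590, 0.597 and 0.673 in the Ad-EGFP libraries. The groups did not overlap in this ratio, which was chosen after the values were seen. A two-sided exact permutation test over the samples gave p = 0.1, the smallest p that 3 against 3 allows. In the ratio, Ad-EGFP replicate 1 lay with its group, although it was the lowest of its group in both genes.

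**Figure D4:**
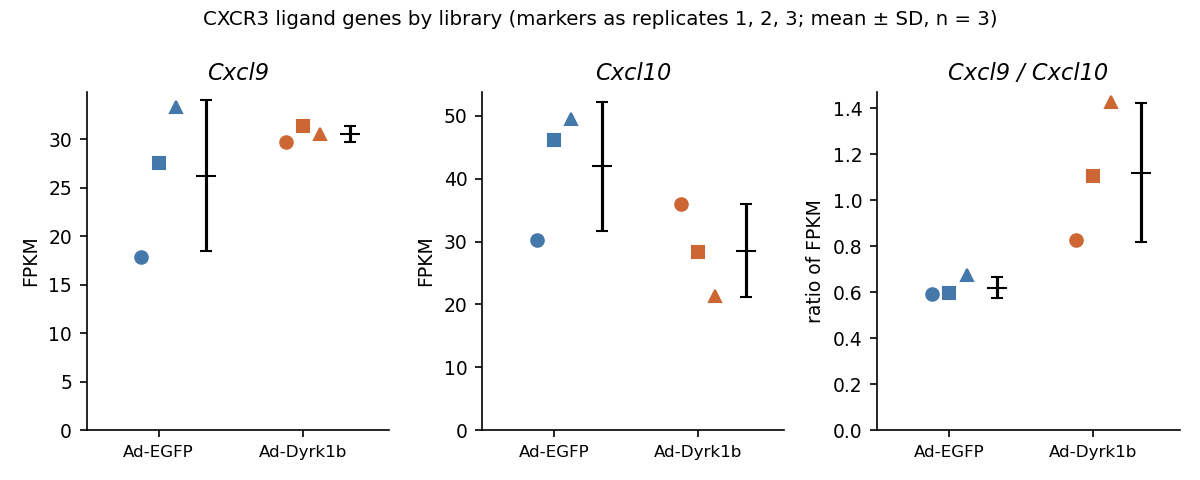
FPKM of Cxcl9 and Cxcl10 and the ratio of both by library (vertical axes, starting at 0), in Ad-EGFP (blue) and Ad-Dyrk1b (orange). Markers give replicates 1, 2 and 3, and the dash with its bar gives the mean ± SD (n = 3). Each gene overlaps between the groups, and the ratio is 0.590 to 0.673 in Ad-EGFP and 0.825 to 1.43 in Ad-Dyrk1b.

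Other CXC ligands were not called either. Cxcl12, the stromal ligand of CXCR4, stood at 65.4 ± 9.69 FPKM with Ad-Dyrk1b and 64.9 ± 7.18 FPKM with Ad-EGFP (mean ± SD, n = 3 each; log2 fold change 0.11 ± 0.14, edgeR adjusted p = 0.653). Its sign changed when Ad-Dyrk1b replicate 3 was left out (-0.033). Cxcl16, the membrane-anchored ligand of CXCR6, stood at 8.65 ± 1.52 and 9.99 ± 4.34 FPKM with Ad-Dyrk1b and Ad-EGFP livers (SD, n = 3 each; log2 fold change -0.14 ± 0.27, edgeR adjusted p = 0.773). Its sign changed without Ad-EGFP replicate 3, and it shares 552 exon bases with Zmynd15 on the opposite strand. Cxcl14 had 1.35, 0.900 and 1.25 FPKM in the Ad-Dyrk1b libraries and 1.43, 2.10 and 2.32 FPKM in the Ad-EGFP libraries. Its groups did not overlap, and its log2 fold change of -0.65 ± 0.27 was not called (edgeR adjusted p = 0.139). Cxcl13, the B cell attractant, had 0.65 ± 0.48 (edgeR adjusted p = 0.402) on 8 to 31 counts per library. The CX3C ligand Cx3cl1 (fractalkine) had 0.19 ± 0.28 (edgeR adjusted p = 0.697), with the opposite sign without Ad-Dyrk1b replicate 2.

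Summed over each family, CC ligands reached 241, 183 and 174 FPKM in the Ad-Dyrk1b libraries and 119, 137 and 130 FPKM in the Ad-EGFP libraries. The groups did not overlap (two-sided exact permutation p = 0.1, the smallest that 3 against 3 allows). CXC ligands summed to 165, 143 and 154 FPKM in the Ad-Dyrk1b libraries and to 158, 182 and 196 FPKM in the Ad-EGFP libraries, which overlapped (exact permutation p = 0.2). In all 3 Ad-EGFP libraries the CXC sum exceeded the CC sum, and in all 3 Ad-Dyrk1b libraries the CC sum was the larger. These sums follow the ligands with the highest levels. With Ad-Dyrk1b, Ccl9, Ccl6 and Ccl24 had means of 76.0, 59.1 and 27.2 FPKM within a mean CC sum of 199 FPKM. With Ad-EGFP they had 35.7, 42.6 and 15.9 FPKM within 129 FPKM. All 3 were already called higher, so the CC sum and its p are not separate from those calls. The sum was not tested without them, and it is not a result about the family as a whole.

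Of the receptors, Cxcr6, which binds CXCL16 and is carried by resident T and NKT cells, had the highest log2 fold change of all tested members, 1.19 ± 0.37, and missed the threshold (edgeR adjusted p = 0.0539). It stood at 1.77, 1.05 and 2.27 FPKM in the Ad-Dyrk1b libraries and at 0.410, 0.930 and 1.0 FPKM in the Ad-EGFP libraries. The groups did not overlap, though Ad-Dyrk1b replicate 2 lay close to the controls. DESeq2 called it (adjusted p = 0.0258), as did edgeR without the count filter (adjusted p = 0.0335) and without Ad-Dyrk1b replicate 2 (adjusted p = 0.0400). Its adjusted p over all alternatives ranged from 0.0258 to 0.174.

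The myeloid receptors Ccr1 and Ccr2 each differed by 0.40 on the log2 scale, with SEs of 0.24 and 0.20 (edgeR adjusted p = 0.305 and 0.209). CCR1 is the receptor of CCL6 and CCL9. Ccr1 stood at 4.12, 3.56 and 4.28 FPKM in the Ad-Dyrk1b libraries and at 2.13, 4.72 and 2.79 FPKM in the Ad-EGFP libraries. Ad-EGFP replicate 2 was the highest of all, and without it Ccr1 was called higher (log2 fold change 0.77, edgeR adjusted p = 0.0286, highest 0.654 over the alternatives). Cxcr2, the neutrophil receptor of CXCL1, had 0.55 ± 0.44 (edgeR adjusted p = 0.453), at 0.380 to 1.43 FPKM with Ad-Dyrk1b and 0.510 to 0.990 FPKM in Ad-EGFP livers. Cxcr4 had 0.57 ± 0.34, Cxcr3 0.14 ± 0.43 and Cx3cr1 0.16 ± 0.23 (edgeR adjusted p = 0.306, 0.854 and 0.698), and the last 2 changed sign between settings. Ccr3, the receptor of CCL24, was near the detection limit with 6 to 19 counts per library, and had -0.23 ± 0.49 (edgeR adjusted p = 0.793). Xcr1, a receptor of dendritic cells, had 0.013 ± 0.41 (edgeR adjusted p = 0.987). Both changed sign between settings. Ad-Dyrk1b replicate 3 was the highest library in 8 of the 14 tested receptors and Ad-EGFP replicate 1 the lowest in 8, against 18.3% and 19.8% of all tested genes.

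Of the 4 atypical receptors edgeR, DESeq2 and limma-voom each called 0, and 1, Ackr3, had an unadjusted p under 0.05. ACKR3 takes up CXCL12. Ackr3 stood at 0.440, 0.750 and 0.620 FPKM in the Ad-Dyrk1b libraries and at 0.290, 0.350 and 0.260 FPKM in the Ad-EGFP libraries. The groups did not overlap (log2 fold change 1.09 ± 0.35, edgeR adjusted p = 0.0632), and none of the 14 alternatives called it (adjusted p = 0.0556 to 0.213 by the tool of each). Ackr4, which takes up CCL19, CCL21 and CCL25, had 0.70 ± 0.45, and Ackr2, which takes up inflammatory CC chemokines, 0.43 ± 0.28 (edgeR adjusted p = 0.327 and 0.348). Ackr1, a chemokine-binding protein of erythroid and endothelial cells, had 0.27 ± 0.48 (edgeR adjusted p = 0.756), with the opposite sign when replicate 3 of either group was left out. Ackr4 and Ackr1 share 479 and 361 exon bases with the genes Acad11 and Cadm3.

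The 25 members that failed the filter were described by their counts alone. Ccl1, Ccl21d, Ccl26, Ccl27b and Cxcl15 had 0 counts in all 6 libraries. The other 20 had 2 to 59 counts over all libraries, Ccr7 with the most and Ccr8 with the fewest. Ccl20, the ligand of CCR6, was counted 11, 24 and 3 times with Ad-Dyrk1b and 4, 6 and 4 times with Ad-EGFP, highest in Ad-Dyrk1b replicate 2. Ccr1l1, a relative of Ccr1, was counted 5, 1 and 2 times with Ad-Dyrk1b and had 0 counts in all 3 Ad-EGFP libraries, which allows up to 3 counts in each. Xcl1, the ligand of XCR1, had 2, 1 and 3 counts in Ad-Dyrk1b and 2, 10 and 6 in the Ad-EGFP libraries. Ccr9, the receptor of CCL25, had 29 counts in all and shares exon bases with Slc6a20a and non-coding genes. Ccr6, Cxcr5 and Ccr7, receptors of CCL20, CXCL13 and CCL19, had 3, 24 and 59 counts over all libraries. In the edgeR fit without the count filter, which took in the 20 genes with any counts, 0 of them were called and 1, Ccr1l1, had an unadjusted p under 0.05.

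Position was not part of the choice of genes, and several members lie in clusters. Ccl5, Ccl9, Ccl6, Ccl3 and Ccl4 lie within 83525778 to 83664683 of chromosome 11. All 5 had log2 fold changes above 0, with a median of 0.55, and 2 were called. Over all tested genes, 6515 of 13201 lay above 0 and 12.2% were called, and 28 of the 37 tested members lay above 0. In the cluster of Ccl27a, Ccl21b, Ccl19 and Ccl21a (chromosome 4, 41769467 to 42773993), 2 of 4 tested genes lay above 0 (median 0.043) and 0 were called. Not every cluster is listed. The cluster of Cxcl5, Cxcl3, Cxcl15, Cxcl1 and Cxcl2 (chromosome 5, 90759360 to 90905938) had 2 tested genes, both below 0. Cxcl9, Cxcl10 and Cxcl11 (chromosome 5, 92321347 to 92365485) had values on both sides of 0. Genes of a cluster are not independent of each other, and these clusters were described after the values were seen.

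Other genes of the chemokine pathway were read from lists, and 3 of 29 tested genes of receptor signalling rose and 0 fell, or 10.3%. Rgs2, which limits G protein signalling, had a log2 fold change of 1.48 ± 0.23, Dock8, a guanine nucleotide exchange factor of migrating leukocytes, 0.91 ± 0.14, and Arrb1 (beta-arrestin 1) 0.59 ± 0.16 (edgeR adjusted p = 0.00449, 0.00161 and 0.0297). The kinase gene Lyn had 0.40 ± 0.14 (edgeR adjusted p = 0.0900). Among inducers and regulators of chemokine transcription 4 of 35 rose and 0 fell, or 11.4%. These were the interferon regulatory factor Irf7 (1.08 ± 0.115), the interferon receptor subunit Ifnar2 (0.51 ± 0.10), the interleukin-1 receptor Il1r1 (0.50 ± 0.10) and the RNA sensor Ddx58 (0.38 ± 0.11; edgeR adjusted p = 9.33e-05, 0.00632, 0.00816 and 0.0420). Ifng and Il6 failed the count filter, and Tnf and Il1b had -0.26 ± 0.65 and -0.53 ± 0.42 (edgeR adjusted p = 0.828 and 0.448).

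Among chemokine-processing and related attractant genes, 3 of 25 tested genes rose and 0 fell, or 12%. Dpp4, a peptidase that trims the N termini of several chemokines, CXCL12 among them, stood at 20.1 ± 1.02 FPKM with Ad-Dyrk1b and 12.2 ± 1.6 FPKM with Ad-EGFP (mean ± SD, n = 3 each; log2 fold change 0.81 ± 0.12, edgeR adjusted p = 0.00113). Mif, a cytokine that also binds chemokine receptors, and Ext1, an enzyme of heparan sulfate synthesis, differed by 0.55 ± 0.12 and 0.42 ± 0.13 on the log2 scale (edgeR adjusted p = 0.0105 and 0.0465). Rarres2, which encodes the attractant chemerin, had 0.37 ± 0.12 (edgeR adjusted p = 0.0667). The platelet chemokines Pf4 and Ppbp, which the choice by symbol leaves out, had -0.18 ± 0.34 and 0.80 ± 0.56 (edgeR adjusted p = 0.769 and 0.372). Of 18 adhesion and trafficking genes 3 rose and 0 fell, or 16.7%. Among them, the integrin subunit Itga4 had 0.57 ± 0.13 and the junctional molecule Jam2 0.49 ± 0.14 (edgeR adjusted p = 0.0171 and 0.0441). The share over all tested genes was 12.2%. For the falling direction, where edgeR called 0 genes in each of the 4 lists, DESeq2 and limma-voom also called 0, and 5 regulators and 0 genes of the other lists had an unadjusted p under 0.05 (edgeR).

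Markers of leukocytes stood higher in some lists, and their part in the results above was not tested. The counts of markers called stand beside 12.2% of all tested genes called and 7.36% called higher. Of 16 tested T and NK cell markers 5 rose and 0 fell, and the summed level of the list was 69.8 to 98.8 CPM in Ad-Dyrk1b and 42.3 to 58.4 CPM in Ad-EGFP livers. Gzmb was 13.8% to 22.6% of that sum, and without it the groups still did not overlap. Those of smallest p are Gzmb (granzyme B, log2 fold change 1.14 ± 0.14), Trbc2 (a T cell receptor chain, 0.92 ± 0.24), Klrk1 (0.85 ± 0.22) and Il2rb (0.85 ± 0.24; edgeR adjusted p = 0.000384, 0.0247, 0.0280 and 0.0343). Of the 16, 15 lay above 0 and 1, Klrb1c, below (-0.12 ± 0.45, edgeR adjusted p = 0.884). Cd3d had 0.048 ± 0.36 (edgeR adjusted p = 0.946). Of 8 monocyte markers 3 rose, Ms4a4c, Plac8 and Ly6c2 (1.43 ± 0.24, 0.67 ± 0.12 and 0.90 ± 0.27; edgeR adjusted p = 0.00249, 0.00366 and 0.0494), and the sums of 839 to 1071 and 747 to 880 CPM overlapped. Of the 8, 7 lay above 0 and 1, Lyz2, below (-0.36 ± 0.30, edgeR adjusted p = 0.47). Fn1 (fibronectin), which hepatocytes also make, was 69.1% to 82.0% of the monocyte sum, and without it the sums of 186 to 228 and 148 to 272 CPM overlapped as well. Of 9 Kupffer cell markers edgeR called 0, with 3 at an unadjusted p under 0.05, and DESeq2 and limma-voom each called 1 higher. Clec4f, their defining lectin, had 0.77 ± 0.22 and C1qb 0.42 ± 0.16 (edgeR adjusted p = 0.0605 and 0.104). Vsig4, Adgre1 and Marco had 0.014 ± 0.13, 0.080 ± 0.39 and -1.07 ± 1.09 (edgeR adjusted p = 0.958, 0.915 and 0.590). Of the 9, 8 lay above 0 and 1, Marco, below. Marco stood at 103 FPKM in Ad-EGFP replicate 3 and at 8.80 to 23.3 FPKM in the other libraries, and it enters the sum. The Kupffer sum was 808 CPM in Ad-EGFP replicate 1 and 1164 to 1588 CPM in the other 5 libraries. Of 5 tested neutrophil markers edgeR, DESeq2 and limma-voom called 0 (0 at an unadjusted p under 0.05 by each), and the sums of 18.7 to 68.8 and 12.1 to 50.8 CPM overlapped. Of the 9 neutrophil markers listed, only these 5 passed the count filter. All 5 had log2 fold changes above 0, with a median of 0.53, while Cxcl1 fell. A link to Cxcl1 was not tested. Bile duct markers summed to 330 to 427 CPM in Ad-Dyrk1b and 201 to 239 CPM in Ad-EGFP livers, with 1 of 6 called, Spp1 (osteopontin, 0.85 ± 0.13, edgeR adjusted p = 0.00134). Spp1 made up 92.7% to 96.0% of that sum, so the sum follows 1 gene. The other 5 markers summed to 16.6 to 21.8 and 14.8 to 16.4 CPM, which did not overlap either. Of these, Sox9 had 0.67 ± 0.22 (edgeR adjusted p = 0.0680), and its groups did not overlap. Epcam and Cldn7 had -0.14 and -0.21. Krt7, Krt19, Epcam and Cldn7 overlapped between the groups (edgeR adjusted p = 0.435 to 0.756 for these 4). DESeq2 called 2 of the 6 bile duct markers higher and limma-voom 1. Endothelial markers, with 1 of 10 called, summed to 299 to 385 CPM in Ad-Dyrk1b and 214 to 294 CPM in Ad-EGFP libraries, which did not overlap. All 10 had log2 fold changes above 0, and 5 had an unadjusted p under 0.05 in edgeR. DESeq2 and limma-voom each called 2 of them higher and 0 lower. Without Lyve1, the gene with the highest summed CPM in that list, the sums of 246.1 to 310.9 and 188.2 to 246.5 CPM overlapped. The sums without 1 gene were added after the values were seen. Of the dendritic, B cell, stellate and platelet markers edgeR called 0 of 4, 0 of 4, 0 of 8 and 0 of 3, with 1, 0, 2 and 0 at an unadjusted p under 0.05. DESeq2 called 1, 0, 1 and 0 of these and limma-voom 0. Of 6 hepatocyte markers edgeR and limma-voom called 0 and DESeq2 1 lower, with 2 at an unadjusted p under 0.05 in edgeR. No marker in any list was at 0 in all 6 libraries. Of 6 erythroid markers all tools called 0, with 0 at an unadjusted p under 0.05 in edgeR, 5 in DESeq2 and 4 in limma-voom. Their sum reached 3827 CPM in Ad-Dyrk1b replicate 3, against 526 to 843 CPM in Ad-EGFP and 869 and 1118 CPM in the other Ad-Dyrk1b libraries. Ad-Dyrk1b replicate 3 had the lowest Ccl9 level of its group. Of the 37 tested members, it was the highest of the 6 libraries in 11 and the lowest in 5. A link of these levels to the erythroid sum was not tested.

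**Figure D5:**
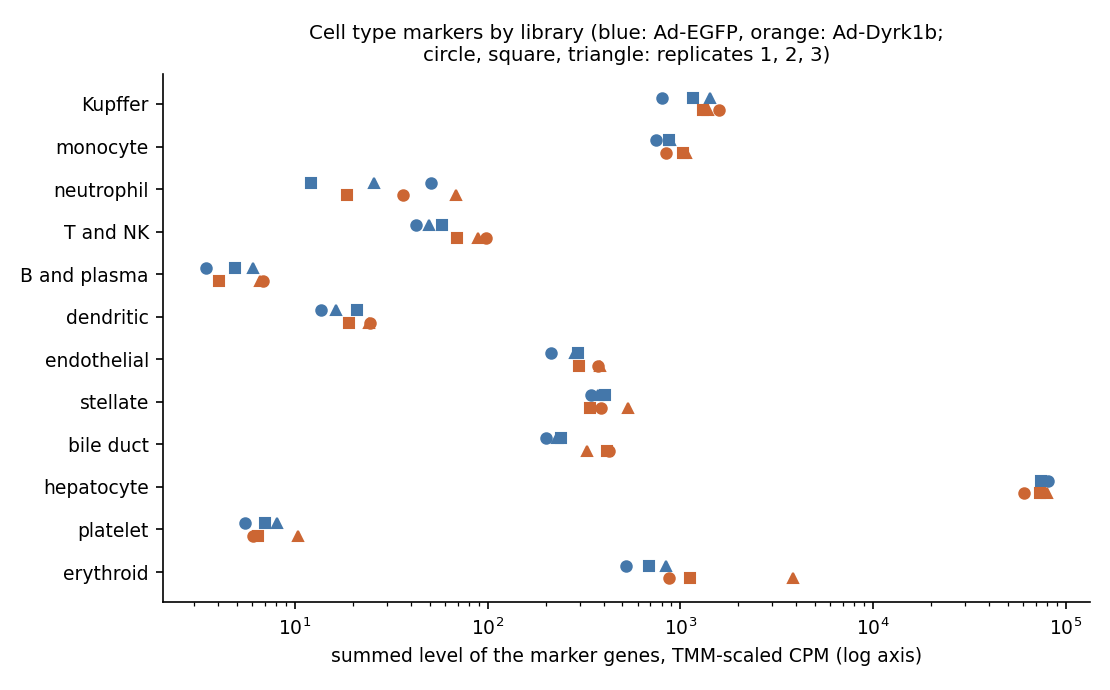
Summed level of each marker list by library, as TMM-scaled CPM on a log axis (horizontal), with blue for Ad-EGFP, orange for Ad-Dyrk1b and markers for replicates 1, 2 and 3. The T and NK cell sum separates the groups (42.3 to 58.4 against 69.8 to 98.8 CPM) and the neutrophil sum does not. The bile duct sum is 92.7% or more Spp1 and the monocyte sum 69.1% or more Fn1.

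In the authors' deposited table, 7 of the 62 genes had an adjusted p under 0.05, 5 higher and 2 lower, where 7.4% of all its genes did. These were the 6 genes called by edgeR and Cxcr6, whose adjusted p in the authors' deposited table was 0.0411. For Ccl9 and Cxcl1 the authors' deposited table gave log2 ratios of 1.09 and -0.86, and adjusted p of 1.78e-09 and 0.000858.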

How the data were processed

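The mRNA of 6 mouse liver samples was sequenced on a NovaSeq after NEBNext Ultra library preparation, per the labels' protocols. The deposited counts are whole numbers for each gene in each library, not normalized, per the file headers. Beside them stand the FPKM computed by the authors, group means, a log2 ratio, and a p-value with its adjusted value, per the file headers. Per the submitters' processing notes the build was mm10 and DESeq2 was used. No aligner, counter or strand setting is given in the sources used here.

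Groups came from the titles. Counts were tested with edgeR 4.0.16 (R 4.3.3): filterByExpr (minimum count 10, minimum total 15), TMM factors, a robust quasi-likelihood fit over all 13201 genes and a two-sided F-test, with Benjamini-Hochberg adjustment over all tested genes. The SE is the log2 fold change divided by the square root of F. On simulated counts for this comparison (13201 genes, 200 changed), 79.0% of 2-fold and 99.0% of 4-fold changes were called, and 7.94% of calls were false. The changed genes were drawn from all tested genes. The shares were not computed for the chemokine and receptor genes, many of which have few counts. Alternatives were DESeq2 1.42.0, limma 3.58.1 (voom, and trend on log2(FPKM + 1) and log2(FPKM + 0.1)), other filters and factors, a replicate block, and leaving out each library. Coordinates are from GENCODE M21 (62 of 62 genes matched).

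The genes, companion lists and tests were chosen with earlier results of these data known. Named genes are every called member, members with a mean of 0.5 FPKM or more in either group, receptors and ligands of these, and up to 4 genes of the smallest p per companion list. Tnf, Il1b, Ifng, Il6, Rela, Nfkb1, Nfkb2, Klrb1c, Cd3d, Lyz2, Marco, Vsig4, Adgre1, Epcam and Cldn7 are outside it and were picked with their values known. Some genes that enter the counts are not reported here by name or drawn. The total counts of 17326516 to 20024888 set the precision for genes with few counts.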

Additional observations from a re-analysis of the deposited data

How the results depend on the processing

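The 37 tested genes were refitted under 14 alternatives, though some failed the filter of an alternative. Ackr4 was fitted in 11 of them, and Ackr1, Ccl21b, Ccr3 and Cxcl13 in 13. Ccl9 and Ccl24 were called in all 14, Cxcl1 in 13, Ccl25 in 10 and Ccl6 in 8. With limma-trend on log2(FPKM + 1) and on log2(FPKM + 0.1), 2 chemokine and receptor genes were higher in each, and 556 and 553 of all genes. With 1 library left out, 2 to 5 members were higher and 0 to 2 lower, and 612 to 800 genes were higher and 294 to 461 lower over all. The cause was not tested, other than that these fits hold fewer samples. The labels do not pair the samples. Deviations from the group means correlated at 0.0245, 0.172 and 0.108 between libraries of replicate numbers 1, 2 and 3, and Ad-Dyrk1b replicate 1 correlated more with Ad-EGFP replicate 3 (0.0845). With the replicate number as a block, 4 members were higher and 2 lower, and 1109 and 774 genes over all, and 0 calls among the members changed.

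Signs changed only in genes that were not called. Ccl21b was -0.94 with limma-voom, -0.056 and -0.56 on FPKM with pseudocounts of 1 and 0.1, and -0.073 with the replicate block. On the same FPKM scales Ccl7 was -0.023 and -0.077, and Xcr1 -0.018 and -0.055. With 1 library left out, log2 fold changes ranged from -0.24 to 0.56 for Ackr1, -0.033 to 0.48 for Ccl19, -0.68 to 0.49 for Ccl21a, -1.03 to 0.76 for Ccl21b, -0.49 to 0.44 for Ccl7 and -0.72 to 0.047 for Ccr3. The ranges were -0.043 to 0.30 for Cx3cl1, -0.0015 to 0.41 for Cx3cr1, -0.033 to 0.23 for Cxcl12, -0.41 to 0.17 for Cxcl16, -0.23 to 0.44 for Cxcr3 and -0.23 to 0.32 for Xcr1. Precision is lowest for the 25 genes that failed the count filter.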

Other observations

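Within the list of 35 tested chemokine regulators, 8 genes were higher and 4 lower in all 3 Ad-Dyrk1b libraries than in any Ad-EGFP library, against 16.5% and 17% of all tested genes. The 4 lower genes are thus 4 of 35, below the share of all genes, and are given as single values. Of the 4, edgeR, DESeq2 and limma-voom called 0. They were named after their values were seen. The NF-kB inhibitor gene Nfkbia had a log2 fold change of -0.27 ± 0.10, the NF-kB subunit gene Relb -0.61 ± 0.24, the deubiquitinase gene Tnfaip3 -0.38 ± 0.14 and the mRNA-decay factor gene Zfp36 -0.32 ± 0.13 (edgeR adjusted p = 0.108, 0.108, 0.101 and 0.114). All 4 had an unadjusted p under 0.05. The NF-kB subunit genes Rela, Nfkb1 and Nfkb2 of the same list had 0.12 ± 0.11, -0.073 ± 0.12 and -0.055 ± 0.16. They overlapped between the groups (edgeR adjusted p = 0.476, 0.740 and 0.849). The mean level of Nfkbia was 22.3 FPKM with Ad-Dyrk1b and 28.4 FPKM with Ad-EGFP. The ratio of the FPKM of Cxcl1 to that of Cxcl12 across Ad-Dyrk1b libraries was 0.368, 0.246 and 0.178. Across Ad-EGFP libraries it was 0.378, 0.588 and 0.474, so replicates 1 of both groups were close together.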
